A study of Rattus norvegicus with 30 samples.

Results

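The comparison set 3 arrays of cells harvested 24 h after their medium was raised from 300 to 600 mosmol/kg against 3 arrays of cells harvested 12 h after the same step. These were 6 of the 30 arrays of the series, chosen by their titles, and 14506 named genes were measured on each. The cells were primary cultured collecting duct cells from the inner medulla of the rat kidney, and their total RNA was hybridised to whole-transcript arrays. Values below also come from cells kept at 300 mosmol/kg (steady 300) and cells kept at 600 mosmol/kg (steady 600), 3 arrays per group. Further groups of 3 were cells 3 h and 48 h after the same step. Others were cells grown at 600 mosmol/kg and examined 12 h or 24 h after a step to 900 mosmol/kg. The fit behind the p-values also held cells kept at 900 mosmol/kg and cells moved from 900 to 300 mosmol/kg for 24 h. The treatment entry of every sample, the steady cultures included, names 5 µM cyclosporin A, an inhibitor of the phosphatase calcineurin, for a time not specified, while no title mentions it, so which cultures received it is not settled by the labels. No culture held at 300 mosmol/kg for 12 h or 24 h beside the stepped ones was used here, so the time since the step and the time in culture cannot be told apart. Whether the 3 replicates were separate cultures or animals is not said in the labels. The p-values reflect only how much arrays of the same group vary among themselves, taken over every group of the 30 arrays. That variation may be purely technical.

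The inner medullary collecting duct is the last tubule segment before urine leaves the kidney, and its cells live in an interstitium whose salt and urea concentrations rise and fall with the water balance of the animal. A rise in external salt draws water out of the cell. Over hours the cell then replaces inorganic ions with organic osmolytes such as sorbitol, myo-inositol and taurine, a programme driven largely by the transcription factor Nfat5, while DNA synthesis and division pause. How far these cultures had come in this adaptation by 12 or 24 h was not tested.

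Epithelial markers were bright in both groups. Epcam, an adhesion molecule of epithelia, measured 11.60, 11.70 and 11.50 at 12 h and 11.63, 11.61 and 11.62 at 24 h on the log2 scale of the arrays, and Cdh1, the junction protein E-cadherin, measured 10.05, 10.22 and 10.21 at 12 h and 10.46, 10.50 and 10.44 at 24 h. Aqp2, the vasopressin-regulated water channel that defines the principal cell, was near the array medians of 5.63 to 5.76. It measured 6.01, 5.58 and 6.01 at 12 h and 6.05, 5.58 and 6.05 at 24 h. Markers of other cells were present too: Cd68, a lysosomal protein of macrophages, measured 10.14, 9.81 and 10.11 at 12 h and 8.12, 7.94 and 7.80 at 24 h, and Col1a1, a collagen chain of fibroblasts, measured 11.08, 11.02 and 10.96 at 12 h and 9.81, 9.93 and 9.81 at 24 h. The labelled cells were thus a culture with epithelial, macrophage and fibroblast transcripts. The 23 principal cell genes of the list used below summed, on a linear scale, to 3516 to 3810 at 12 h and 4927 to 4967 at 24 h, against 12366 to 14302 in steady 600 cells.

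Between 12 and 24 h the level of 3919 of 14506 genes changed (27.0%) in limma at a Benjamini-Hochberg adjusted p below 0.05, with 2540 higher at 24 h (17.5%) and 1379 lower (9.51%). All adjusted p-values below come from this moderated test, changes are log2 differences (24 h minus 12 h) ± standard error, levels are log2 signals ± SD over 3 arrays, and 1 log2 unit is a 2-fold difference. The median change of all genes was 0.01. The shares of 17.5% and 9.51% are the reference for each count of list members called higher or lower below. Of all genes tested, 144 fell at least 2-fold (0.993%) and 115 rose at least 2-fold (0.793%), an order that turned under median centring, with 133 lower and 135 higher. The 3 arrays of one time lay wholly above or below those of the other for 6143 genes (42.3%), for 3685 with 24 h higher (25.4%) and for 2458 with 12 h higher (16.9%). With the genes cut into 3 equal parts by their mean over the 6 arrays, 116 rose and 270 fell in the dimmest part. In the middle part 1184 rose and 596 fell, and in the brightest 1240 rose and 513 fell. The surplus of increases thus lay in the middle and brightest parts, and few genes were called in the dimmest. Without the marker genes of leukocytes, fibroblasts and endothelium and 3 related lists described below, 2529 genes rose and 1322 fell, and at least 2-fold changes numbered 115 upward and 106 downward.

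Replicates were close. The median absolute difference between arrays of one group was 0.115 to 0.137 at 12 h and 0.0945 to 0.100 at 24 h, and it was 0.182 to 0.205 between arrays of the 2 times. The median SD of a gene was 0.108 at 12 h and 0.0866 at 24 h. Array signals flatten at both ends of the scale, so changes of very dim or very bright genes can be understated, and no detection call was used here.

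**Figure D1:**
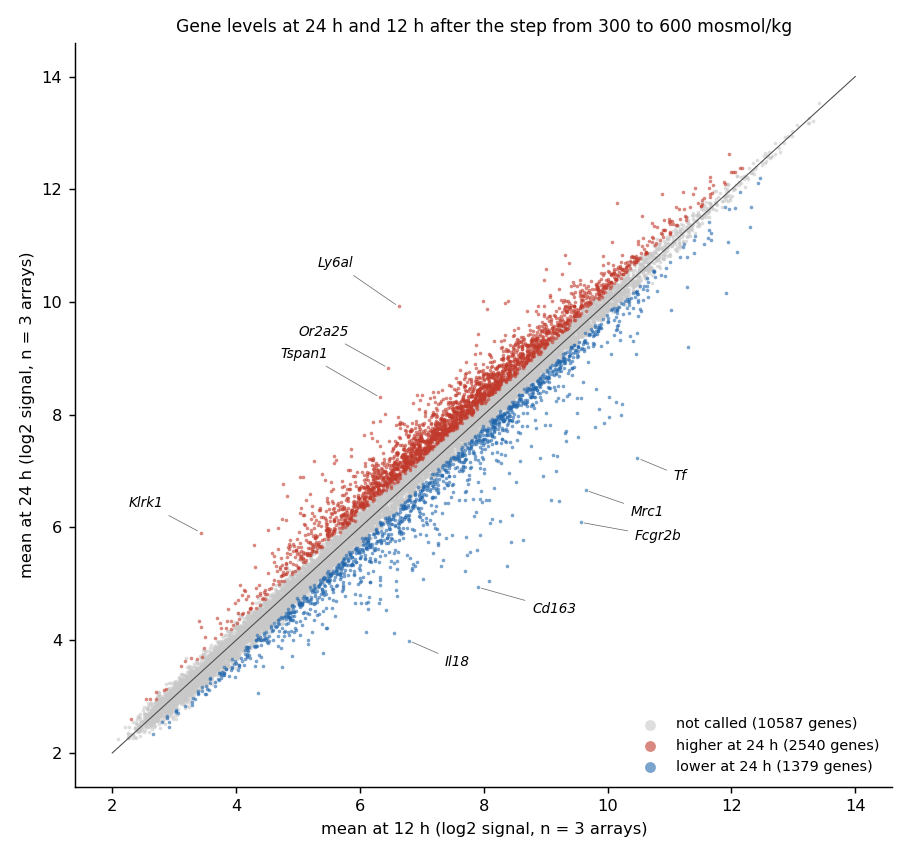
Mean log2 signal of each of 14506 genes at 24 h (vertical axis) against 12 h (horizontal axis) after the step from 300 to 600 mosmol/kg, 3 arrays per mean. Red points are the 2540 genes called higher at 24 h, blue points the 1379 called lower and grey points those not called, with the line of equal levels drawn. The points farthest below the line are macrophage genes such as Mrc1 and Cd163 together with Tf and Il18, and Ly6al lies farthest above it.

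Macrophage genes were among the deepest falls. Of 19 leukocyte markers measured, 15 fell and 0 rose, and the median change of the list was −2.02. Mrc1, the mannose receptor of tissue macrophages, measured 9.85, 9.27 and 9.82 at 12 h and 6.91, 6.54 and 6.53 at 24 h. It fell by 2.98 ± 0.13 (adjusted p = 4.72e-16), a 7.91-fold difference, and the 2 groups lay far apart. C1qa, a chain of the complement component that starts the classical pathway, measured 8.87, 8.39 and 8.63 at 12 h and 5.94, 5.68 and 5.71 at 24 h. It fell by 2.85 ± 0.12 (adjusted p = 6.26e-16), a 7.22-fold difference. Cd163, the scavenger receptor for haemoglobin bound to haptoglobin, measured 8.07, 7.59 and 8.05 at 12 h and 4.77, 5.12 and 4.93 at 24 h and fell by 2.97 ± 0.15 (adjusted p = 8.13e-15). In none of these genes, whose choice required groups without overlap, did any array at 24 h come near the lowest array at 12 h. Cd68 fell by 2.07 ± 0.11 (adjusted p = 6.38e-14), a 4.19-fold difference, and Laptm5, a lysosomal membrane protein of blood cells, fell by 1.87 ± 0.11 (adjusted p = 2.63e-13). Csf1r, the receptor for the macrophage growth factor M-CSF, fell less, by 0.88 ± 0.11 (adjusted p = 3.46e-07).

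The 4 markers that did not pass included Ptprc and Cd14, which macrophages also carry. Ptprc, the pan-leukocyte phosphatase CD45, changed by −0.03 ± 0.14 (adjusted p = 0.901), and the endotoxin co-receptor Cd14 by −0.16 ± 0.14 (adjusted p = 0.466), from a high level of 10.80 ± 0.19 at 12 h. The T cell gene Cd3e was at 3.49 ± 0.06 and 3.49 ± 0.14 at the 2 times, near the dim end of the scale, and the B cell gene Cd79b at 5.90 ± 0.16 and 5.79 ± 0.15. On a linear scale the 19 markers summed to 12890 to 16457 at 12 h and 4777 to 5187 at 24 h, against 13342 to 14328 in steady 300 cells, 3870 to 4203 at 48 h and 4022 to 4181 in steady 600 cells. The sum at 12 h thus still spanned that of cells never stepped, while at 24 h it was a little above that of cells kept at 600 mosmol/kg. In bulk RNA, fewer cells of a type and less RNA per cell cannot be told apart.

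Several others among the 12 largest decreases are also known from macrophages and related myeloid cells. Fcgr2b, the inhibitory receptor for immunoglobulin G, measured 9.75, 9.24 and 9.71 at 12 h and 6.14, 6.04 and 6.09 at 24 h and fell by 3.47 ± 0.17 (adjusted p = 8.02e-15), a 11.1-fold difference. Clec4a2, a C-type lectin of myeloid cells, fell by 3.05 ± 0.15 (adjusted p = 2.68e-15), and the chemokine Ccl6 fell by 3.04 ± 0.14 (adjusted p = 1.66e-15). Il18, a cytokine matured by the inflammasome, measured 6.71, 6.68 and 6.98 at 12 h and 3.86, 4.17 and 3.95 at 24 h and fell by 2.80 ± 0.14 (adjusted p = 8.02e-15), and Il1r2, the decoy receptor for interleukin 1, fell by 2.47 ± 0.12 (adjusted p = 8.29e-15). The remaining genes of this group handle iron, fatty acids and nucleosides. Tf, which encodes transferrin, the iron carrier of plasma, was among the brighter genes of the array at 12 h and measured 10.61, 10.39 and 10.45 at 12 h and 7.45, 7.09 and 7.15 at 24 h. It fell by 3.25 ± 0.13 (adjusted p = 1.23e-16), a 9.52-fold difference. Cd36, a fatty acid and scavenger receptor, fell by 2.75 ± 0.16 (adjusted p = 1.33e-13), the nucleoside transporter Slc28a2 fell by 2.71 ± 0.16 (adjusted p = 1.90e-13) and the ectonucleotidase Enpp3 fell by 2.60 ± 0.15 (adjusted p = 2.19e-13).

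Further macrophage functions were described with lists put together after these values had been seen, and they carry no test. Of 11 class II antigen presentation genes, 8 fell and 0 rose, with a median of −0.78. The lysosomal protease Ctss, which trims the invariant chain, measured 9.96, 9.72 and 9.88 at 12 h and 8.21, 8.19 and 7.89 at 24 h. The class II chain RT1-Da changed by −1.92 ± 0.16 and the invariant chain Cd74 by −0.63 ± 0.11. Of 23 macrophage receptor and phagocyte oxidase genes, 15 fell and 1 rose. Cybb, the catalytic subunit of the phagocyte oxidase, changed by −2.09 ± 0.14 (adjusted p = 4.50e-12), whereas Cyba, its partner that many other cells also use, rose by 0.35 ± 0.12 (adjusted p = 0.0262). The Toll-like receptor genes of this list did not move alike: Tlr7 changed by −1.81 ± 0.12 (adjusted p = 2.25e-12), Tlr2 by 0.20 ± 0.09 (adjusted p = 0.0926) and Tlr4 by 0.18 ± 0.11 (adjusted p = 0.269).

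Fibroblast and matrix genes fell as well. Of 16 markers of fibroblasts and interstitial cells, 8 fell and 1 rose, with a median of −0.33. The single rise was not called without replicate 3 of 12 h. Their linear sum was 11754 to 13013 at 12 h and 6508 to 7004 at 24 h. Fap, a surface protease of activated fibroblasts, measured 5.82, 5.17 and 5.23 at 12 h and 3.89, 3.79 and 3.61 at 24 h. It fell by 1.64 ± 0.15 (adjusted p = 8.07e-10), a 3.12-fold difference. Every array at 24 h lay below every array at 12 h, as for 16.9% of all genes. Acta2, the smooth muscle actin of myofibroblasts, fell by 0.96 ± 0.10 (adjusted p = 1.47e-08). Of 17 collagen and matrix protein genes, 3 of which also stand in another list, 9 fell and 0 rose, with a median of −0.39. Col12a1, a collagen that decorates fibrils, measured 9.48, 9.54 and 9.48 at 12 h and 8.03, 8.06 and 8.02 at 24 h and fell by 1.46 ± 0.14 (adjusted p = 3.01e-09). The fibrillar chains Col1a1 and Col1a2 fell by 1.17 ± 0.13 and 1.03 ± 0.10, and the network collagen Col8a1 by 1.06 ± 0.09. The leukocyte markers moved in the same direction in the same arrays, and their part in these falls was not tested.

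Contractile genes of smooth muscle, a list of 13 drawn up after the values were seen, went both ways. Of these, 10 were lower, as in Myh11, the smooth muscle myosin, at −2.02 ± 0.11, the actin-binding calponin Cnn1 at −1.98 ± 0.14 and the intermediate filament desmin, Des, at −1.62 ± 0.14. The other 3 were higher, namely Tpm1 at 0.50 ± 0.08, Smtn at 0.32 ± 0.09 and Cald1 at 0.27 ± 0.10, genes whose products many other cells also make. All 13 passed the test, and 3 of them stand in a second list.

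**Figure D2:**
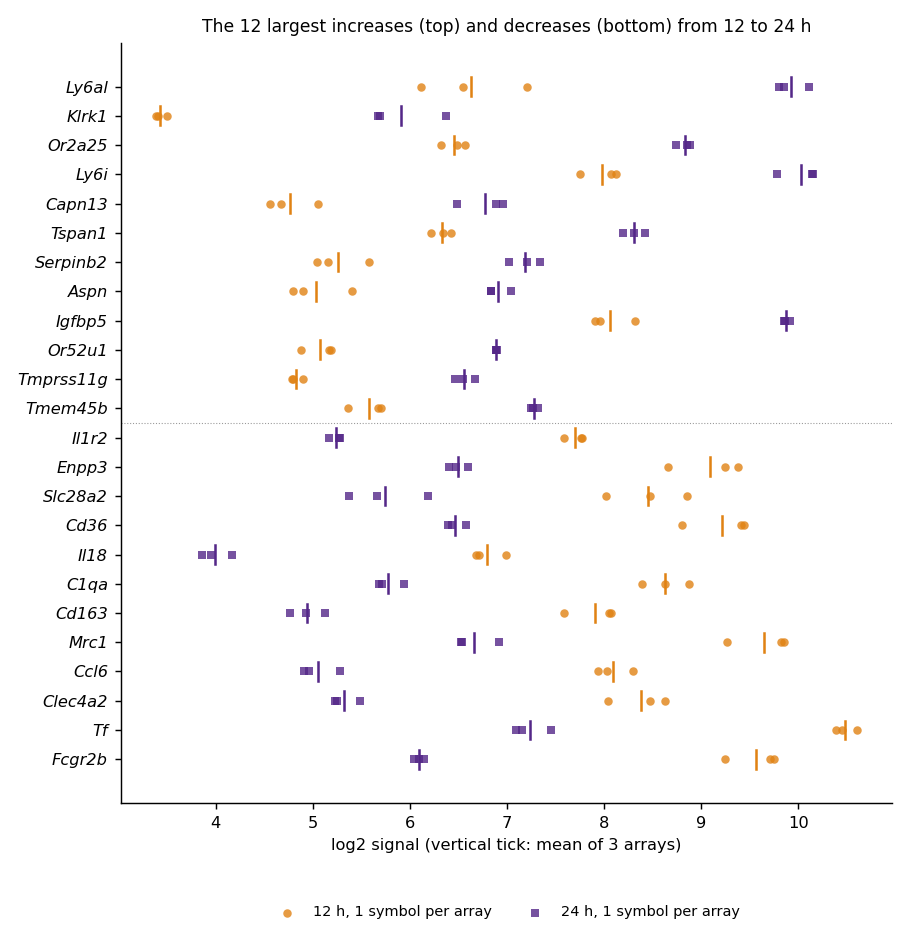
Log2 signal on each of the 6 arrays for the 12 genes with the largest increases and the 12 with the largest decreases among named genes whose 12 h and 24 h arrays did not overlap. Each point is 1 array, with 12 h and 24 h in separate colours; in every gene shown the 3 arrays of one time lie on one side of the other 3, as the choice required, and Fcgr2b, Ly6al and Tf differ most in their means.

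Genes of cell division fell together. Of 21 mitosis genes, 18 fell and 0 rose, with a median of −0.74. Ttk, a kinase of the spindle checkpoint, measured 5.02, 5.16 and 5.32 at 12 h and 4.0, 3.76 and 4.06 at 24 h. It fell by 1.23 ± 0.10 (adjusted p = 3.08e-10), a 2.34-fold difference. Bub1, another checkpoint kinase, measured 6.16, 6.04 and 6.30 at 12 h and 5.01, 5.01 and 5.07 at 24 h and fell by 1.14 ± 0.12 (adjusted p = 3.38e-08), and the spindle assembly factor Tpx2 fell by 1.00 ± 0.10 (adjusted p = 1.02e-08). Prc1, which bundles microtubules of the central spindle, measured 7.57, 7.43 and 7.51 at 12 h and 6.86, 6.51 and 6.52 at 24 h and fell by 0.87 ± 0.10 (adjusted p = 8.38e-08). The groups did not overlap in any of the 4 genes, which were chosen by small adjusted p. Over the list, the 24 h arrays lay wholly below the 12 h arrays for 19 of 21 genes, against 16.9% of all genes. The leukocyte and fibroblast sums fell in the same arrays, and their part in the fall of the mitosis genes was not tested.

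DNA replication genes fell as well. Of 24 measured, 15 fell and 0 rose, with a median of −0.39. Rrm2, the regulated subunit of ribonucleotide reductase, which makes the building blocks of DNA, measured 8.22, 8.10 and 8.19 at 12 h and 6.83, 6.69 and 6.57 at 24 h. It fell by 1.48 ± 0.13 (adjusted p = 3.91e-10), a 2.78-fold difference. Pcna, the sliding clamp of the polymerases, measured 9.46, 9.28 and 9.29 at 12 h and 8.41, 8.29 and 8.29 at 24 h and fell by 1.01 ± 0.10 (adjusted p = 1.22e-08). The helicase subunits Mcm5 and Mcm6 fell by 1.12 ± 0.14 and 0.73 ± 0.09, and Uhrf1, which keeps DNA methylation through replication, by 0.78 ± 0.09. In some alternatives, among them the fit without replicate 3 of 12 h, 1 member was called higher.

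Of 22 p53 target and growth arrest genes, 6 fell (27.3%) and 3 rose (13.6%), beside 9.51% and 17.5% of all genes. Their median was 0.00 (−0.03 without replicate 2 of 24 h and 0.03 without replicate 2 of 12 h). Gadd45b, a stress-induced gene of the growth arrest family, measured 10.51, 10.41 and 10.57 at 12 h and 9.79, 9.70 and 9.75 at 24 h and fell by 0.75 ± 0.07 (adjusted p = 2.91e-09). Mdm2, the ubiquitin ligase that removes p53, fell by 0.54 ± 0.12 (adjusted p = 9.08e-04). Sesn1, a sestrin that restrains the growth kinase mTORC1, rose by 0.63 ± 0.07 (adjusted p = 3.06e-08), and the polo-like kinase Plk3 rose by 0.55 ± 0.10 (adjusted p = 9.73e-05). The genes of this list therefore did not move one way.

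The promoter of Prc1 shows the sequence elements for which mitosis genes are known, the CCAAT box and the cell cycle genes homology region TTTGAA. It is given from RefSeq on assembly GRCr8 (chr1:143659331-143659480, plus strand), 5′ to 3′ over the 150 bases before the annotated start, with both elements in capitals.
Prc1: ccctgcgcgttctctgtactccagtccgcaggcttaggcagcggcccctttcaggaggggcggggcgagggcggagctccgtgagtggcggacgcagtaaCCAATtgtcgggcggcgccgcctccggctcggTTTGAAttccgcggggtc
Promoter windows, from 250 bases before to 50 after the start, were found for 17 of the 21 mitosis genes and searched on both strands. TTTGAA stood in 11 of these 17 (64.7%), against 18.3% of all 33469 promoters, and CCAAT in 12 (70.6%), against 37.5%. The E2F letters TTTCCCGC were in 3 of 20 replication gene promoters (15%), Mcm5 among them, against 0.974% of all. A match describes these letters and is neither a shown binding site nor a cause.

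Cholesterol genes rose almost without exception. Of 19 genes of cholesterol synthesis and uptake, 18 rose and 0 fell, with a median of 0.43. Fdft1, squalene synthase, the first enzyme committed to sterols, measured 8.56, 8.65 and 8.61 at 12 h and 9.29, 9.39 and 9.23 at 24 h. It rose by 0.70 ± 0.09 (adjusted p = 4.40e-07), a 1.62-fold difference. Sqle, the squalene epoxidase, measured 8.56, 8.45 and 8.64 at 12 h and 9.28, 9.13 and 9.18 at 24 h and rose by 0.65 ± 0.09 (adjusted p = 2.04e-06). Dhcr7, which catalyses the last step of one branch, rose by 0.60 ± 0.07 (adjusted p = 1.37e-07), and Nsdhl, which removes methyl groups from the sterol ring, rose by 0.69 ± 0.11 (adjusted p = 1.48e-05). Along the course Sqle stood at 9.44 ± 0.04 in steady 300 cells, 8.70 ± 0.19 at 3 h, 8.55 ± 0.10 at 12 h, 9.20 ± 0.07 at 24 h and 9.28 ± 0.02 at 48 h. The median of the list was −0.52 relative to steady 300 cells at 12 h and −0.11 at 24 h. The letters TCACNCCAC of the sterol regulatory element were in 0 of 15 promoter windows of this list (RefSeq, both strands), against 1.12% of all promoters, which says only that these letters are not in this window.

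Genes of fatty acid synthesis and lipid storage were mixed. Of 19, 6 rose (31.6%) and 3 fell (15.8%), beside 17.5% and 9.51% of all genes. The list median was 0.11 (0.06 without replicate 3 of 12 h and 0.11 without replicate 2 of 24 h). Plin2, a coat protein of lipid droplets, rose by 0.51 ± 0.07 (adjusted p = 1.48e-06), and Acly, which supplies acetyl-CoA to the cytosol, rose by 0.30 ± 0.07 (adjusted p = 0.00117). The desaturases went in opposite directions: Scd fell by 0.70 ± 0.10 (adjusted p = 2.70e-06) and Scd2 rose by 0.44 ± 0.08 (adjusted p = 1.77e-04). Without replicate 2 of 24 h only 1 member was called lower. The median also went to 0.06 without replicate 2 of 12 h or replicate 1 of 24 h.

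Part of the interferon-stimulated genes rose. Of 27, 13 rose and 1 fell, with a median of 0.34. Rtp4, a chaperone for receptors induced by interferon, measured 4.86, 5.37 and 5.16 at 12 h and 6.47, 6.43 and 6.55 at 24 h and rose by 1.35 ± 0.13 (adjusted p = 4.07e-09), a 2.54-fold difference. Mx2, a dynamin-like antiviral GTPase, measured 5.34, 4.86 and 4.93 at 12 h and 6.22, 6.15 and 6.66 at 24 h and rose by 1.30 ± 0.20 (adjusted p = 7.20e-06). The immunoproteasome subunits Psmb9 and Psmb8 rose by 0.87 ± 0.10 and 0.64 ± 0.08. Relative to steady 300 cells the median of the list was −0.63 at 12 h and −0.26 at 24 h. The single call of a fall was lost without replicate 2 or 3 of 12 h or replicate 3 of 24 h.

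Many members of the whole list, called or not, carry a known promoter element. The core of the interferon-stimulated response element, TTTC, any 2 bases and TTTC again, stood in 15 of 21 promoter windows (71.4%) against 3.92% of all promoters. Rtp4, Mx2 and Psmb9 were not among these 15. Whether the element had a part in the rises was not tested. Gbp2, a guanylate-binding protein of host defence, rose by 0.47 ± 0.08, and Ifi27, a small mitochondrial and nuclear-envelope protein, rose by 0.49 ± 0.15. Their promoters are shown from RefSeq on GRCr8, 5′ to 3′ along the gene for the 150 bases before the start, because each carries the element close to the start; for Gbp2 (chr2:234005577-234005726, plus strand) it lies on the strand of the gene, and for Ifi27 (chr6:128355162-128355311, plus strand) on the other. The capitals mark the element.
Gbp2: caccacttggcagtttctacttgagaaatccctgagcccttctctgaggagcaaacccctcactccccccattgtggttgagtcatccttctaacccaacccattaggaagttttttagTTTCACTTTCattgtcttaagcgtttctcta
Ifi27: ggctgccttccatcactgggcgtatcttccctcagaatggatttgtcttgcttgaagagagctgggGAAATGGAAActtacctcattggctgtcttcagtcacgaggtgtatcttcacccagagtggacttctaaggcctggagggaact

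A majority of circadian clock genes rose. Of 16, 9 rose and 1 fell, with a median of 0.30. Per3, a period gene of the negative limb of the clock, measured 5.04, 5.21 and 4.99 at 12 h and 6.19, 6.31 and 6.20 at 24 h and rose by 1.15 ± 0.10 (adjusted p = 6.43e-10), a 2.22-fold difference. Cry2, a cryptochrome that represses the clock activators, measured 6.27, 6.40 and 6.32 at 12 h and 7.55, 7.46 and 7.30 at 24 h and rose by 1.11 ± 0.08 (adjusted p = 8.65e-12). The output factors Tef and Dbp, which bind D-box elements, rose by 0.60 ± 0.08 and 0.57 ± 0.09. Per3 stood at 6.01 ± 0.13 in steady 300 cells, 6.12 ± 0.28 at 3 h, 5.08 ± 0.11 at 12 h, 6.23 ± 0.07 at 24 h and 6.05 ± 0.08 at 48 h, so its lowest level among these was at 12 h. The labels give no hour of harvest or of medium change, and the time since the step and the phase of a cellular rhythm cannot be told apart. The E-box CACGTG was found in 3 of 15 promoter windows of this list (20%), against 6.42% of all promoters, and the D-box TTATGTAA in 1 (6.67%), against 0.893%.

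Early response genes declined. Of 28 immediate early genes and MAPK phosphatases, 14 fell and 2 rose, with a median of −0.24. Egr1, a zinc finger factor switched on by growth signals, measured 9.14, 9.21 and 9.62 at 12 h and 7.61, 7.43 and 7.55 at 24 h and fell by 1.79 ± 0.17 (adjusted p = 4.39e-09), a 3.46-fold difference. Dusp6, a phosphatase induced by and acting on ERK, fell by 1.02 ± 0.10 (adjusted p = 2.60e-09), and Dusp4, a nuclear relative, fell by 0.58 ± 0.10 (adjusted p = 6.37e-05). Klf4, a factor of epithelial differentiation, fell by 0.72 ± 0.09 (adjusted p = 4.84e-07). The 14 calls of a fall became 9 without replicate 3 of 12 h, and 1 rise in place of 2 was called when any of the 6 arrays was left out.

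Cytokine and NF-kB target genes moved both ways. Of 25, 11 fell (44%, beside 9.51% of all genes), 5 rose (20%, near the 17.5% of all genes) and 9 were not called. The list median was −0.26. Il1b, the cytokine interleukin 1 beta, measured 9.16, 9.05 and 9.01 at 12 h and 7.93, 7.76 and 7.74 at 24 h and fell by 1.26 ± 0.15 (adjusted p = 1.20e-07), and Icam1, an adhesion molecule for leukocytes, fell by 0.72 ± 0.11 (adjusted p = 1.43e-05). Ccl7, a chemokine that draws monocytes, measured 9.46, 9.16 and 9.17 at 12 h and 10.44, 10.49 and 10.56 at 24 h and rose by 1.23 ± 0.11 (adjusted p = 1.15e-09), a 2.35-fold difference. Ptgs2, the inducible cyclooxygenase, rose by 0.79 ± 0.09 (adjusted p = 1.29e-07). The leukocyte markers fell in the same arrays, and their part in the lower cytokine genes was not tested.

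Growth factor genes and their receptors rose in part. Of 27, 10 rose (37.0%) and 2 fell (7.41%), beside 17.5% and 9.51% of all genes. The list median was −0.01 (−0.02 without replicate 1 of 24 h and 0.07 without replicate 1 of 12 h). The epidermal growth factor receptor ligands Ereg and Btc rose by 1.15 ± 0.13 (adjusted p = 4.29e-08) and 1.11 ± 0.11 (adjusted p = 6.81e-09), and Fgfr2, a receptor of epithelia for fibroblast growth factors, rose by 0.86 ± 0.10 (adjusted p = 1.31e-07). Vegfa, the angiogenic factor, measured 9.15, 9.33 and 9.35 at 12 h and 8.28, 8.28 and 8.25 at 24 h and fell by 1.01 ± 0.10 (adjusted p = 7.96e-09). Of 22 matrix proteases, serpins and inhibitors, 7 rose (31.8%) and 6 fell (27.3%), beside 17.5% and 9.51% of all genes. Their median was 0.02 (−0.08 without replicate 1 of 24 h and 0.11 without replicate 3 of 24 h). Mmp3, the matrix metalloproteinase stromelysin, rose by 1.49 ± 0.14 (adjusted p = 1.89e-09), and Prss35, a protease-like secreted protein, fell by 1.37 ± 0.11 (adjusted p = 1.93e-10). Adamts1, which cleaves proteoglycans, fell by 0.64 ± 0.07 (adjusted p = 1.08e-07).

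Of 16 matricellular genes that TGF-beta or YAP can induce, 7 rose (43.75%) and 4 fell (25%), beside 17.5% and 9.51% of all genes. Their median was 0.08. Ankrd1, a classic target of YAP, measured 9.28, 8.75 and 9.00 at 12 h and 10.59, 10.55 and 10.60 at 24 h and rose by 1.57 ± 0.11 (adjusted p = 6.60e-12), a 2.96-fold difference. Tgfbi, a matrix protein induced by TGF-beta, fell by 1.21 ± 0.12 (adjusted p = 3.17e-09). The contractile genes Myl9 and Tagln fell by 0.90 ± 0.10 and 0.88 ± 0.10. The 7 rises became 3 without replicate 1 of 12 h and 4 without replicate 1 or replicate 2 of 24 h.

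Tonicity-responsive genes moved in both directions. Of 10 tonicity-responsive and organic osmolyte genes measured, 3 rose (30%) and 2 fell (20%), beside 17.5% and 9.51% of all genes. The median was −0.04 (−0.10 without replicate 2 of 12 h and 0.03 without replicate 2 of 24 h), beside 0.01 for all genes. Akr1b1, the aldose reductase that makes sorbitol, measured 13.32, 13.34 and 13.29 at 12 h and 13.23, 13.24 and 13.18 at 24 h. Its change was −0.10 ± 0.06 (adjusted p = 0.287). These levels are close to the highest value measured (13.88), where differences can be compressed. The other, less bright probe set of Akr1b1 changed by −0.17 and was not called either (adjusted p = 0.402 over all probe sets). Slc5a3, the myo-inositol transporter, measured 7.86, 7.81 and 7.91 at 12 h and 7.75, 7.68 and 7.64 at 24 h, a change of −0.17 ± 0.09 (adjusted p = 0.164). Slc6a6, the taurine transporter, changed by −0.13 ± 0.06 (adjusted p = 0.129), and Nfat5 itself by 0.15 ± 0.11 (adjusted p = 0.347). In none of the 4 was a difference detected, except that Slc5a3 passed as lower under quantile and cyclic loess normalization and Slc6a6 under cyclic loess. The median of the list lay 0.67 above steady 300 cells at 12 h, 0.72 at 24 h and 1.09 at 48 h.

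The members that did move had separate directions. Slc14a2, the urea transporter of the inner medulla, measured 5.34, 5.65 and 5.73 at 12 h and 6.42, 6.64 and 6.22 at 24 h and rose by 0.86 ± 0.13 (adjusted p = 1.03e-05). Hspa4l, a heat shock protein induced by osmotic stress, was at 9.98 ± 0.10 at 12 h and 9.29 ± 0.06 at 24 h and fell by 0.69 ± 0.10 (adjusted p = 2.67e-06). Slc38a2, the amino acid transporter of the early osmotic response, fell by 0.25 ± 0.08 (adjusted p = 0.0234), a call lost under median centring and without replicate 3 of 12 h or replicate 2 of 24 h. Nup88, a protein of the nuclear pore, rose by 0.28 ± 0.09 (adjusted p = 0.0239), and its call was lost under quantile and cyclic loess normalization and without replicate 2 or 3 of 12 h or replicate 1 or 2 of 24 h. Over the list, 1 rise in place of 3 was called without replicate 2 or 3 of 12 h or replicate 1 or 2 of 24 h, and 1 fall in place of 2 without replicate 3 of 12 h or replicate 2 of 24 h. Cyclic loess normalization called 1 rise and 4 falls.

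Of 22 heat shock proteins and co-chaperones, 4 fell (18.2%) and 1 rose (4.55%), beside 9.51% and 17.5% of all genes. Their median was −0.07 (−0.10 without replicate 1 of 12 h and −0.06 without replicate 2 of 12 h). Hsph1, the large co-chaperone of HSP70, fell by 0.60 ± 0.08 (adjusted p = 2.56e-06), and the small heat shock protein Cryab rose by 0.59 ± 0.08 (adjusted p = 2.06e-06). Hspa2, an HSP70 family member, fell by 0.30 ± 0.09 (adjusted p = 0.0145), a call lost without replicate 1 or 3 of 12 h. The 4 falls became 2, and the 1 rise became 2, without replicate 3 of 12 h.

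Genes of the collecting duct rose in part. Of 23 principal cell genes, 8 rose (34.8%) and 1 fell (4.35%), beside 17.5% and 9.51% of all genes. Their median was 0.16, and their linear sum was 3516 to 3810 at 12 h and 4927 to 4967 at 24 h. Gata3, a transcription factor of the collecting duct lineage, measured 7.89, 8.28 and 8.13 at 12 h and 9.06, 9.13 and 8.97 at 24 h and rose by 0.95 ± 0.12 (adjusted p = 6.23e-07), a 1.93-fold difference. Aqp4, a water channel of the basolateral membrane, rose by 0.68 ± 0.14 (adjusted p = 3.73e-04), and the kidney cadherin Cdh16 rose by 0.53 ± 0.07 (adjusted p = 1.91e-06). Aqp2 changed by 0.03 ± 0.20 (adjusted p = 0.948) and its basolateral partner Aqp3 by 0.13 ± 0.17 (adjusted p = 0.640). Thus the apical water channel stood at 5.89 ± 0.27 at 24 h, below the 10.07 ± 0.48 of steady 600 cells. The single fall was not called without replicate 3 of 12 h or replicate 1 or 2 of 24 h.

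Of 19 ion transport and cell volume genes, 5 rose (26.3%) and 4 fell (21.1%), beside 17.5% and 9.51% of all genes. Their median was 0.02 (−0.02 without replicate 1 of 12 h and 0.07 without replicate 2 of 12 h). Fxyd2, a regulatory subunit of the sodium pump, measured 8.72, 8.82 and 8.69 at 12 h and 9.46, 9.64 and 9.39 at 24 h and rose by 0.75 ± 0.08 (adjusted p = 4.01e-08). Wnk4, a kinase that senses chloride, rose by 0.53 ± 0.09 (adjusted p = 2.04e-05), the sodium/proton exchanger Slc9a2 rose by 0.49 ± 0.10 (adjusted p = 2.78e-04) and the potassium channel Kcnk1 rose by 0.34 ± 0.07 (adjusted p = 4.62e-04). Among 20 epithelial markers, 10 rose and 1 fell, with a median of 0.24 and a linear sum of 23590 to 26112 at 12 h and 27164 to 27745 at 24 h. Muc1, a mucin of the apical surface, measured 7.97, 8.06 and 7.69 at 12 h and 9.62, 9.39 and 9.27 at 24 h and rose by 1.52 ± 0.12 (adjusted p = 1.43e-10), a 2.87-fold difference. Esrp1, a splicing factor of epithelia, rose by 1.22 ± 0.08 (adjusted p = 2.46e-12), and the tight junction genes Cldn8 and Tjp3 rose by 1.02 ± 0.15 and 0.58 ± 0.07. The single fall was lost under all 3 scalings and when any array except replicate 3 of 12 h was left out. These rises stood beside the lower leukocyte and fibroblast sums of the same arrays, whose part in them was not tested.

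Of 14 intercalated cell markers, 4 rose (28.6%) and 2 fell (14.3%), beside 17.5% and 9.51% of all genes. Their median was −0.04 (−0.06 without replicate 3 of 24 h and 0.00 without replicate 2 of 12 h). Slc26a4, the chloride/bicarbonate exchanger pendrin, measured 7.83, 8.0 and 7.81 at 12 h and 9.36, 9.15 and 9.22 at 24 h and rose by 1.36 ± 0.14 (adjusted p = 1.24e-08), a 2.57-fold difference. Kit rose by 1.24 ± 0.12 (adjusted p = 5.69e-09), the carbonic anhydrase Car2 rose by 0.65 ± 0.10 (adjusted p = 6.25e-06) and the ammonia transporter Rhbg fell by 0.57 ± 0.13 (adjusted p = 0.00130). Of 16 markers of the loop of Henle and proximal tubule, 3 rose (18.75%, near the 17.5% of all genes) and 0 fell. Their median was 0.01 (−0.06 without replicate 2 of 24 h and 0.06 without replicate 3 of 24 h). The claudins Cldn16 and Cldn10 rose by 1.18 ± 0.10 and 0.76 ± 0.10, and Slc12a1, the salt transporter of the thick limb, rose by 0.44 ± 0.16 (adjusted p = 0.0328), a call lost with array weights and when any array except replicate 3 of 12 h was left out. Of 13 endothelial markers, 6 rose (46.2%) and 2 fell (15.4%), beside 17.5% and 9.51% of all genes. Their median was 0.09 (0.06 without replicate 2 of 12 h and 0.13 without replicate 3 of 12 h). Emcn, a sialomucin of endothelium, rose by 0.69 ± 0.07 (adjusted p = 1.15e-08), and Sox17 rose by 0.47 ± 0.09 (adjusted p = 1.84e-04). The angiopoietin receptor Tek rose by 0.63 ± 0.09 (adjusted p = 5.63e-06) while its relative Tie1 fell by 0.67 ± 0.10 (adjusted p = 5.69e-06). The 2 falls among intercalated markers became 1 without replicate 1 or 3 of either time, and the 2 among endothelial markers without replicate 3 of 12 h or replicate 1 or 3 of 24 h.

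Of 21 injury and repair genes, 7 of which also stand in other lists, 7 rose (33.3%, beside 17.5% of all genes). In this list 2 fell (9.52%, near the 9.51% of all genes), and its median was 0.10. The keratins Krt8, Krt18 and Krt19 rose by 0.26 ± 0.06, 0.38 ± 0.07 and 0.43 ± 0.10, although 1 of the 3 probe sets of Krt18 was not called. Prom1, a membrane protein of progenitor and tubule cells, rose by 0.36 ± 0.10 (adjusted p = 0.00474). Of 20 prostaglandin and endothelin genes, 6 rose (30%) and 4 fell (20%), beside 17.5% and 9.51% of all genes. Their median was 0.03 (0.00 without replicate 1 of 12 h and 0.06 without replicate 2 of 12 h). Ptgs1, the constitutive cyclooxygenase, measured 8.50, 8.52 and 8.48 at 12 h and 9.39, 9.32 and 9.08 at 24 h and rose by 0.76 ± 0.08 (adjusted p = 5.43e-09). The neuronal nitric oxide synthase Nos1 rose by 0.46 ± 0.10 (adjusted p = 8.91e-04) and Abcc4, a pump that exports prostaglandins and cyclic nucleotides, fell by 0.38 ± 0.07 (adjusted p = 1.82e-04). The 4 falls became 2 without replicate 1 or replicate 2 of 24 h, and the 2 falls among injury genes became 1 when any array except replicate 2 of 12 h was left out. The call of Krt19 was lost when the 6 compared arrays were fitted alone.

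Some genes of mitochondria and of protein turnover rose by small amounts. Of 25 oxidative phosphorylation genes, 10 rose (40%, beside 17.5% of all genes) and 0 fell, with a median of 0.22. Uqcrc2, of complex III, measured 9.70, 9.58 and 9.47 at 12 h and 10.13, 9.97 and 10.03 at 24 h and rose by 0.46 ± 0.09 (adjusted p = 1.33e-04), and Sdhb, of complex II, rose by 0.41 ± 0.08 (adjusted p = 9.00e-05). The complex I genes Ndufb5 and Ndufv1 rose by 0.29 ± 0.07 and 0.30 ± 0.08. The count depended on the setting, with 6 under quantile normalization, 5 under cyclic loess and 18 with array weights, and with 6 without replicate 1 of 12 h, 5 without replicate 3 of 12 h and 4 without replicate 1 of 24 h.

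Of 24 proteasome genes, 6 rose (25%, near the 17.5% of all genes) and 0 fell, with a median of 0.15. Among its core subunits, Psmb1 rose by 0.29 ± 0.07 (adjusted p = 0.00346), Psma2 rose by 0.25 ± 0.07 (adjusted p = 0.00760) and Psmb7 rose by 0.23 ± 0.07 (adjusted p = 0.0193), and Psmd2, of the regulatory cap, rose by 0.26 ± 0.07 (adjusted p = 0.0104). The 6 rises became 3 under quantile or cyclic loess normalization and without replicate 3 of 12 h or replicate 1 of 24 h, with 10 under median centring and 12 with array weights, and the call of Psmb7 was lost under quantile or cyclic loess normalization and without replicate 2 or 3 of 12 h or replicate 1 or 2 of 24 h. Of 24 autophagy and lysosome genes, 8 rose (33.3%) and 3 fell (12.5%), beside 17.5% and 9.51% of all genes. Their median was 0.18, and 13 rose with array weights. Ctsz, a lysosomal protease, measured 9.72, 9.33 and 9.49 at 12 h and 7.63, 7.64 and 7.54 at 24 h and fell by 1.91 ± 0.08 (adjusted p = 2.74e-16), a 3.76-fold difference. The aspartic protease Ctsd fell by 0.53 ± 0.07 (adjusted p = 4.20e-07), while Becn1, which starts autophagosome formation, and the sialidase Neu1 rose by 0.69 ± 0.09 and 0.60 ± 0.09. The macrophage markers moved with Ctsz and Ctsd, and their part was not tested.

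Of 28 antioxidant, glutathione and pentose phosphate genes, 10 rose (35.7%) and 3 fell (10.7%), beside 17.5% and 9.51% of all genes. Their median was 0.13. Gpx2, a glutathione peroxidase of epithelia, measured 10.04, 10.09 and 10.06 at 12 h and 11.12, 11.13 and 10.96 at 24 h and rose by 1.01 ± 0.08 (adjusted p = 1.43e-10), a 2.01-fold difference. Nqo1, a quinone reductase that responds to the factor Nrf2, rose by 0.94 ± 0.09 (adjusted p = 2.91e-09), and Gclm and Prdx6 rose by 0.48 ± 0.08 and 0.52 ± 0.08. Of 27 glycolysis and hypoxia-inducible genes, 3 fell (11.1%, near the 9.51% of all genes) and 1 rose (3.70%, below the 17.5% of all genes). Their median was −0.01 (−0.03 without replicate 2 of 12 h and 0.02 without replicate 3 of 24 h). The glucose transporter Slc2a1 rose by 0.41 ± 0.06 (adjusted p = 4.80e-06), whereas Ndrg1 and the enolase Eno2 fell by 0.40 ± 0.08 and 0.43 ± 0.10. Without replicate 3 of 12 h, 2 members rose.

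Of 19 amino acid transporters, 5 rose (26.3%) and 5 fell (26.3%), beside 17.5% and 9.51% of all genes. Their median was −0.04 (−0.10 without replicate 2 of 24 h and 0.03 without replicate 3 of 24 h). Slc1a1, Slc1a4 and Slc1a5, carriers of glutamate, of small neutral amino acids and of glutamine, rose by 0.56 ± 0.08, 0.55 ± 0.08 and 0.35 ± 0.08, and Slc38a4 fell by 0.46 ± 0.09 (adjusted p = 3.91e-04). Without replicate 2 of 12 h, 3 members were called higher. Of 25 genes of the unfolded protein and integrated stress response, 5 fell (20%) and 3 rose (12%), beside 9.51% and 17.5% of all genes. Their median was 0.03 (−0.01 without replicate 1 of 12 h and 0.03 without replicate 3 of 24 h). Ppp1r15a, which reverses the block of translation, fell by 0.59 ± 0.09 (adjusted p = 8.37e-06), Atf4 fell by 0.28 ± 0.07 (adjusted p = 0.00282), Creld2 fell by 0.28 ± 0.08 (adjusted p = 0.00843) and Xbp1 rose by 0.27 ± 0.08 (adjusted p = 0.0139). The call of Creld2 was lost without replicate 2 of 12 h and in a fit of the 6 arrays alone. The 3 rises became 1 without replicate 1 or 3 of 12 h or replicate 1 or 2 of 24 h, and the 5 falls became 2 without replicate 2 of 12 h and 3 without replicate 2 of 24 h. Of 21 ribosome biogenesis genes, 2 fell (9.52%, near the 9.51% of all genes) and 0 rose. The 2 were Mybbp1a, by 0.51 ± 0.09, and the nucleolar protein Ncl, by 0.20 ± 0.07. Only 1 fall was left without replicate 2 or 3 of either time, under median centring or in a fit of the 6 arrays alone. Cyclic loess normalization gave 5 falls. The call of Ncl was lost under median centring and when any array except replicate 1 of 24 h was left out.

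**Figure D3:**
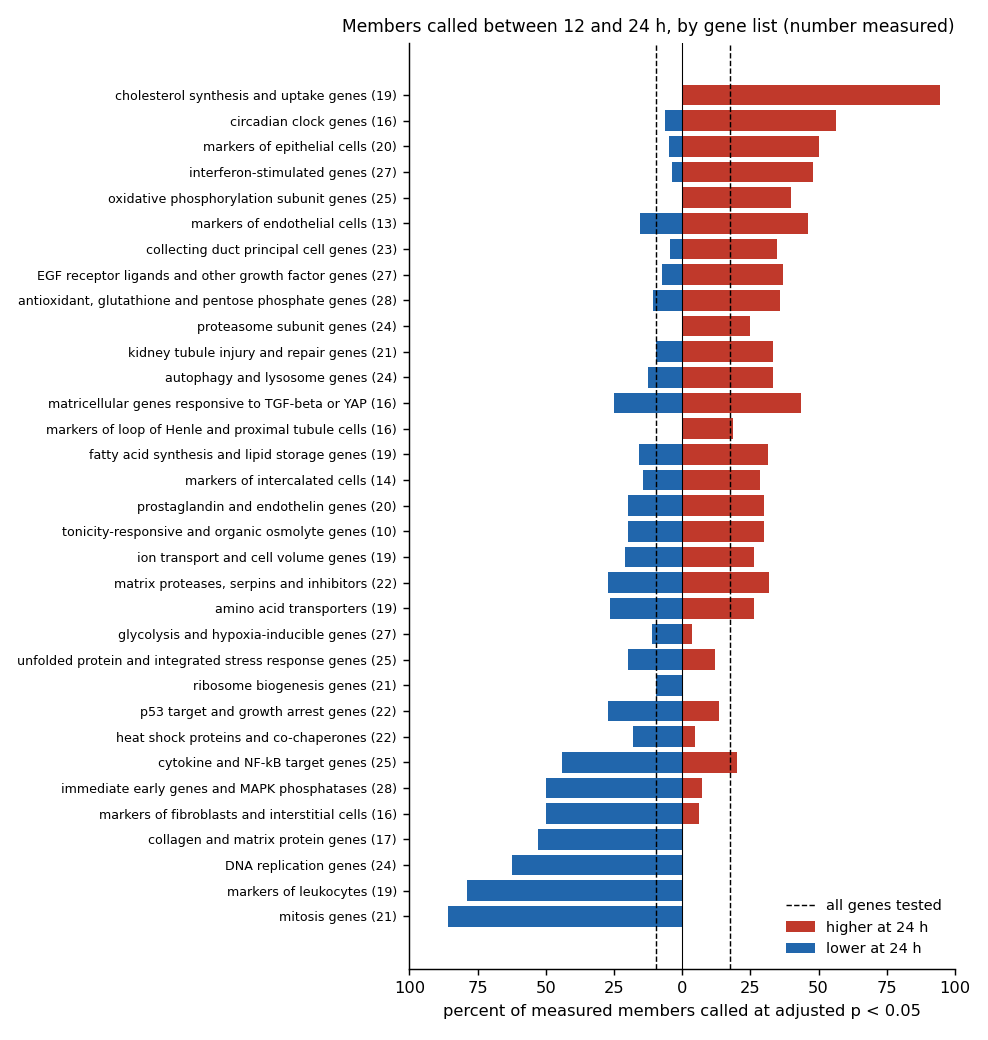
Share of the measured members of each gene list that were called higher (red, to the right) or lower (blue, to the left) at 24 h than at 12 h, in percent, with the shares among all 14506 genes drawn as lines (17.5% higher and 9.51% lower). The cholesterol list reaches 18 of 19 members on the higher side, and the leukocyte and mitosis lists reach 15 of 19 and 18 of 21 on the lower side.

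The largest increases came from genes of varied kinds, and no single list held them. Ly6al, of the Ly6 family of small surface proteins, measured 7.21, 6.55 and 6.11 at 12 h and 10.10, 9.86 and 9.80 at 24 h and rose by 3.30 ± 0.29 (adjusted p = 7.57e-10), a 9.83-fold difference. Its 12 h arrays were widely spread, with an SD of 0.55, and each lay below all arrays at 24 h, as the choice of the largest increases required. Klrk1, annotated as an activating receptor of natural killer cells, measured 3.40, 3.50 and 3.38 at 12 h and 5.69, 6.37 and 5.67 at 24 h and rose by 2.48 ± 0.16 (adjusted p = 6.67e-13), a 5.59-fold difference. Or2a25, named as an odorant receptor, measured 6.57, 6.32 and 6.48 at 12 h and 8.89, 8.74 and 8.86 at 24 h and rose by 2.37 ± 0.11 (adjusted p = 2.19e-15). A relative of it by name, Or52u1, rose by 1.81 ± 0.15 (adjusted p = 1.90e-10). Capn13, a calpain, rose by 2.01 ± 0.12 (adjusted p = 1.67e-13), and Ly6i rose by 2.05 ± 0.19 (adjusted p = 1.58e-09).

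Several of the other large increases encode surface or secreted proteins. Tspan1, a tetraspanin of epithelia, measured 6.42, 6.34 and 6.21 at 12 h and 8.42, 8.30 and 8.19 at 24 h and rose by 1.98 ± 0.11 (adjusted p = 6.38e-14), a 3.95-fold difference. Serpinb2, an inhibitor of plasminogen activators, measured 5.58, 5.16 and 5.05 at 12 h and 7.34, 7.21 and 7.02 at 24 h and rose by 1.93 ± 0.18 (adjusted p = 1.80e-09). Igfbp5, which binds insulin-like growth factors, rose by 1.82 ± 0.13 (adjusted p = 1.34e-11), and Aspn, a small proteoglycan of the matrix, rose by 1.87 ± 0.17 (adjusted p = 9.16e-10). Tmprss11g, a transmembrane protease, and Tmem45b rose by 1.73 ± 0.12 and 1.70 ± 0.11.

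Levels along the whole course show where 12 and 24 h stand. The median of the leukocyte list relative to steady 300 cells was 0.11 at 3 h, 0.01 at 12 h, −1.69 at 24 h and −1.55 at 48 h. That of the mitosis list was −0.53, −0.49, −1.20 and −1.53 at the same times. The leukocyte list thus stood near its steady 300 level at 12 h, while the mitosis list lay lower already at 3 h; these levels share arrays and were not tested against each other. Vsig4, a complement receptor of resident macrophages, stood at 11.14 ± 0.09 in steady 300 cells, 10.81 ± 0.06 at 3 h, 11.30 ± 0.18 at 12 h, 9.20 ± 0.08 at 24 h and 5.68 ± 0.11 at 48 h. Mrc1 stood at 9.59 ± 0.08 in steady 300 cells, 9.93 ± 0.05 at 3 h, 9.64 ± 0.33 at 12 h, 6.66 ± 0.22 at 24 h and 6.21 ± 0.15 at 48 h. The 3 h group holds 1 array that stood apart from the other two, replicate 3, so levels at that time are less certain.

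Some genes had their highest mean of the course at 24 h. Klrk1 stood at 3.48 ± 0.19 in steady 300 cells, 3.37 ± 0.23 at 3 h, 3.43 ± 0.06 at 12 h, 5.91 ± 0.40 at 24 h and 4.07 ± 0.12 at 48 h. Serpinb2 stood at 3.63 ± 0.38 in steady 300 cells, 2.98 ± 0.30 at 3 h, 5.26 ± 0.28 at 12 h, 7.19 ± 0.16 at 24 h and 4.24 ± 0.13 at 48 h. Igfbp5, by contrast, was lowest at 12 h and stood at 10.26 ± 0.08 in steady 300 cells, 9.21 ± 0.36 at 3 h, 8.06 ± 0.22 at 12 h, 9.88 ± 0.03 at 24 h and 10.65 ± 0.01 at 48 h.

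**Figure D4:**
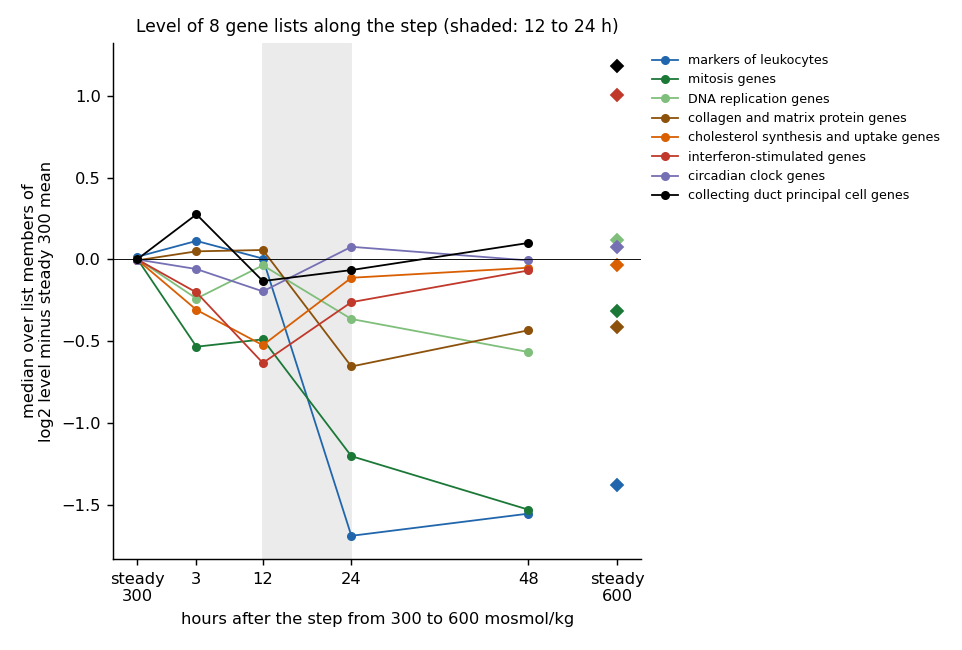
Median, over the members of 8 gene lists, of the log2 level minus the steady 300 mean, for steady 300 cells, at 3, 12, 24 and 48 h after the step from 300 to 600 mosmol/kg (horizontal axis; steady 300 is set to the left of time 0) and in steady 600 cells (diamonds). Each point rests on 3 arrays and the shaded span marks 12 to 24 h, in which the leukocyte line drops from 0.01 to −1.69 and the cholesterol line rises from −0.52 to −0.11.

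Cells kept at 600 mosmol/kg gave a reference that shares no array with the comparison. Between steady 600 and steady 300 cells 3935 genes differed (27.1%), 1989 of them higher at 600 (13.7%) and 1946 lower (13.4%). Of the 2540 genes that rose from 12 to 24 h, 764 were higher in steady 600 cells and 410 lower. Of the 1379 genes that fell, 487 were lower in steady 600 cells and 173 higher. Among the genes that moved at least 2-fold, 120 of 144 falling genes were also lower in steady 600 cells and 8 were higher, and 54 of 115 rising genes were higher and 31 lower. Of the leukocyte markers 16 of 19 were lower in steady 600 cells, and 0 were higher. Or2a25 was an example of the opposite kind: it rose from 12 to 24 h and stood at 8.61 ± 0.13 in steady 300 and 4.49 ± 0.12 in steady 600 cells. Slc26a4 rose too and stood at 9.32 ± 0.13 and 5.61 ± 0.27 in the same cultures.

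The same interval after the step from 600 to 900 mosmol/kg was compared with the one described so far. There 4707 genes changed (32.4%), 3046 upward (21.0%) and 1661 downward (11.5%), on arrays that the first comparison does not use. The change differed between the 2 steps for 2380 genes (16.4%) in a test of the difference itself, being more positive after the step to 600 for 1041 (7.18%) and more negative for 1339 (9.23%). Replicate 9 of 12 h after the step to 900 stood apart from its group, and without it 4938 genes changed after that step and 2919 differed between the steps, 1149 more positive and 1770 more negative.

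The falls of macrophage and mitosis genes differed between the steps. Of 19 leukocyte markers 16 differed, all of them more negative after the step to 600, beside 9.23% of all genes. The median of the list was −0.15 after the step to 900. The markers summed to 1919 to 2587 at 12 h after the step to 900, already below their sum at 24 h after the step to 600. Cd163 changed by 0.04 ± 0.15 after the step to 900, a difference of −3.01 ± 0.21 (adjusted p = 2.81e-11). Its mean level at 12 h was already 4.35 after the step to 900, against 7.91 after the step to 600. The part of this low level in the difference was not tested. Of 21 mitosis genes 16 differed, and of 24 replication genes 11 did. All of them were more negative after the step to 600, beside 9.23% of all genes. The median of the mitosis list after the step to 900 was 0.03.

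Interferon-stimulated genes also differed between the steps. After the step to 900 all 27 rose, beside 21.0% of all genes, with a median of 1.59. Between the steps 23 differed, each of them more positive after the step to 900, beside 9.23% of all genes. Usp18, a protease that takes the ubiquitin-like ISG15 off its targets, measured 4.71, 4.95 and 4.47 at 12 h and 4.80, 4.51 and 4.59 at 24 h after the step to 600, a change of −0.07 ± 0.15 (adjusted p = 0.768). After the step to 900 it changed by 3.15 ± 0.15, which gave a difference of −3.23 ± 0.21 (adjusted p = 6.44e-12). Of 19 cholesterol genes, 15 rose after the step to 900, beside 21.0% of all genes. Between the steps 3 of the 19 differed, near the 16.4% of all genes. A difference that was not called does not show that the changes were equal.

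Among the genes whose changes differed most, 3 rose after the step to 600 and fell after the step to 900. Mmp13, a collagenase, measured 8.80, 9.04 and 9.09 at 12 h and 10.25, 10.15 and 10.80 at 24 h after the step to 600 and changed by −1.08 ± 0.17 after the step to 900, a difference of 2.50 ± 0.24 (adjusted p = 1.12e-08). Mmp3 gave a difference of 2.39 ± 0.20 (adjusted p = 6.37e-10) and Tmem72 of 2.38 ± 0.22 (adjusted p = 5.75e-09). Both metalloproteinases thus moved in opposite directions after the 2 steps. Or2a25 differed by 2.53 ± 0.16 (adjusted p = 3.65e-12) and Ly6al by 2.45 ± 0.41 (adjusted p = 7.63e-05). At 12 h after the step to 900, Mmp13, Ly6al and Tmem72 already had mean levels of 12.35, 11.64 and 8.09. At 12 h after the step to 600 they had 8.98, 6.62 and 5.71. Or2a25 had 4.25 at 12 h after the step to 900 and 6.46 after the step to 600, and Mmp3 had 6.32 and 6.19. On the negative side stood Tf with −3.39 ± 0.18 (adjusted p = 1.76e-13), Fcgr2b with −3.10 ± 0.25 (adjusted p = 3.18e-10) and Il18 with −2.91 ± 0.20 (adjusted p = 1.67e-11). At 12 h after the step to 900 their mean levels were already 5.14, 4.50 and 3.27, which left less room for a fall. At 12 h after the step to 600 they were 10.48, 9.57 and 6.79. The part of the 12 h levels in the positive and negative differences was not tested. Of 23 collecting duct genes, 4 were more positive and 6 more negative after the step to 600, beside 7.18% and 9.23% of all genes. Aqp2, for which no change was called after the step to 600, changed by 1.99 ± 0.20 after the step to 900.

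**Figure D5:**
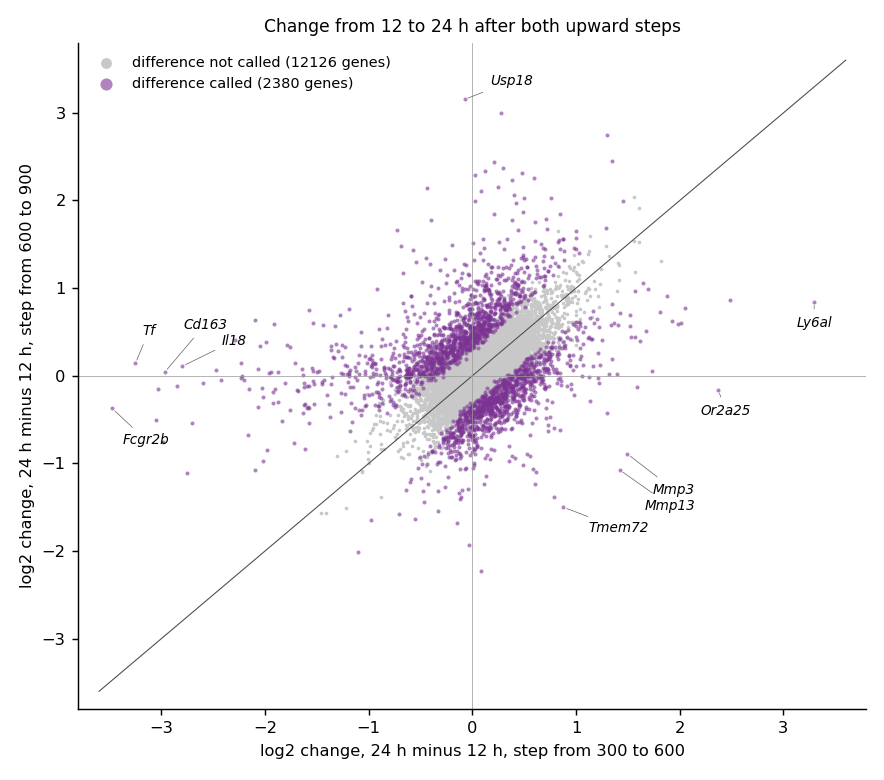
Log2 change from 12 to 24 h after the step from 600 to 900 mosmol/kg (vertical axis) against that after the step from 300 to 600 (horizontal axis) for 14506 genes, with 3 arrays per group. Purple points are the 2380 genes whose changes differed between the steps and the diagonal marks equal changes. Tf, Fcgr2b, Cd163 and Il18 lie far to the left near a vertical value of 0, and Usp18 lies at the top near a horizontal value of 0. At 12 h after the step to 900, Tf, Fcgr2b, Cd163 and Il18 already had mean levels of 5.14, 4.50, 4.35 and 3.27.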

How the data were processed

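Expression was measured on Affymetrix whole-transcript rat gene arrays, 1 per sample. The deposited values are log2 signals made by the authors with RMA, per the submitters' processing notes, a procedure that corrects background, normalizes arrays and summarises probes. The sources used here give neither its version nor its software. The table of 29170 probe sets had 0 missing values, array medians of 5.63 to 5.76 and a maximum of 13.88. Precision is limited by having 3 arrays per group.

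The platform annotation listed 1 gene for 15310 probe sets, several for 323 and none for 13537. The Entrez identifiers of 15279 matched the GRCr8 table, and the brightest probe set stood for each of 14506 genes. With limma 3.58.1 in R 4.3.3, 1 mean per group was fitted to all 30 arrays (20 residual degrees of freedom), p-values were adjusted over all genes by Benjamini-Hochberg, and a gene was called at an adjusted p below 0.05. The procedure was tested on simulated data. Promoter sequences came from RefSeq tables on GRCr8.

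Named genes were the 12 largest increases and decreases among called genes whose groups did not overlap (symbols starting with LOC, RGD or MGC left out), up to 4 members of each list by adjusted p, 8 osmotic response genes, and the 5 largest differences between the steps in each direction. Other genes, such as Csf1r, Gbp2 and Aqp3, were chosen after their values were seen. The members and lists were chosen with earlier results of these data known, and 3 lists (class II, macrophage receptors, smooth muscle) after the values were seen, and lists share up to 7 members with others, so list counts and medians are descriptions. Alternatives were quantile, median and cyclic loess scaling, a filter on dim genes, the mean of probe sets, array weights, trended robust variance, a replicate block, fits of the compared arrays alone and omission of each array.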

Additional observations from a re-analysis of the deposited data

Results flagged for a closer look

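The difference between the steps was tested as an interaction in limma, and it passed for 2380 genes. The largest positive differences (log2 change after the step to 600 minus that after the step to 900) were 2.53 for Or2a25, 2.50 for Mmp13, 2.45 for Ly6al, 2.39 for Mmp3 and 2.38 for Tmem72. The largest negative ones were −3.39 for Tf, −3.23 for Usp18, −3.10 for Fcgr2b, −3.01 for Cd163 and −2.91 for Il18. Of these, Tf, Fcgr2b, Cd163 and Il18 already had low mean levels at 12 h after the step to 900, of 5.14, 4.50, 4.35 and 3.27. At the same time Mmp13, Ly6al and Tmem72 had 12.35, 11.64 and 8.09, above their 8.98, 6.62 and 5.71 at 12 h after the step to 600.

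Probe sets with no gene listed were outside the comparisons of genes. Of 13537 of them, 1799 changed between 12 and 24 h (13.3%) when fitted in the same way, 885 upward and 914 downward, and 60 rose and 164 fell at least 2-fold.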

How the results depend on the processing

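The counts of called genes between 12 and 24 h kept within 1.5 times their value under every alternative run. Leaving out single arrays gave 3226 to 3701 called genes, 2125 to 2476 higher and 1056 to 1294 lower, with 104 to 127 and 140 to 159 at least 2-fold. For the step to 900 the ranges were 4084 to 4938, 2670 to 3389 and 1341 to 1615, and for the difference between the steps 2002 to 2919, 767 to 1149 and 1141 to 1770. Steady 600 against steady 300 gave 3371 to 3485, 1681 to 1733 and 1665 to 1752. Genes higher at 24 h were higher in steady 600 cells for 646 to 739 and lower for 350 to 398, and genes lower at 24 h were lower for 407 to 457 and higher for 137 to 170.

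Some counts moved by more. With array weights 3659 genes differed between the steps, 2104 of them more negative, 653 genes were higher at 24 h and lower in steady 600 cells, and 275 were lower at 24 h and higher there. With the compared arrays alone 1086 genes fell after the step to 900. The cause was not tested. Of 148 named genes 143 were called; 8 of those lost their call and 2 others gained one under at least 1 alternative, and 0 turned direction. Quantile, median and cyclic loess scaling gave 58.0%, 72.2% and 56.2% of the called genes higher, against 64.8%, and moved the median change by at most 0.04.

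The replicate numbers gave no clear pairing of the 12 h and 24 h arrays. Same-numbered arrays deviated from their group means with correlations of 0.000939, 0.0321 and 0.0573, and 1 of 3 correlated best with its own number. After the step to 900 only replicate 2 did so, while each steady 300 array did so with the steady 600 arrays. With 3 arrays per group these correlations cannot settle whether the numbers mark shared cultures. With the replicate number as a block, 4008 genes were called, 2586 higher and 1422 lower. The sign of a list median near 0 was not stable. It turned under some scalings for growth factor, glycolysis, ion transport, p53, ribosome biogenesis, tonicity and unfolded protein genes, with array weights for p53 and ribosome biogenesis genes, with the mean of probe sets for glycolysis genes, with the filter on dim genes for growth factor, intercalated cell, loop of Henle and protease genes, and without 1 array for growth factor (0.07), glycolysis (0.02), ion transport (−0.02), amino acid transporter (0.03), loop of Henle (−0.06), protease (−0.08), p53 (0.03), ribosome biogenesis (−0.05), tonicity (0.03) and unfolded protein genes (−0.01).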
